A study of Mus musculus with 10 samples.

Results

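The effect of losing Atg16l1 that is common to both sorted subsets of spleen dendritic cells was described over all 10 libraries of the series, 4 knockout (KO) and 6 wild type (WT). The members were set by the labels: each library carried a subset label, CD11b or CD8, and a genotype, and 1 genotype effect per gene was fitted with the subset label as a covariate. Expression was measured by strand-specific RNA sequencing of total RNA in 4 groups, with 3 libraries each of CD11b WT and CD8 WT and 2 libraries each of CD11b KO and CD8 KO. All libraries came from spleens of single C57BL/6 mice aged 16 weeks, which were digested with enzymes before CD11c-high, MHC class II-high cells were sorted on CD11b and CD8. WT mice were Atg16l1 +/+ and KO mice Atg16l1 -/-, in a series whose title names a mouse model of atherogenesis. The labels do not say how or in which cells the gene was deleted, which diet or other allele the mice had, or whether both subsets came from the same animals. The series' design text speaks of strains in the plural, while the labels give a single strain.

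ATG16L1 is the scaffold that brings the ATG12-ATG5 conjugate to the forming autophagosome, where LC3 is joined to lipid. Autophagy delivers cytoplasm, organelles and microbes to the lysosome, and in dendritic cells it also feeds antigen processing for MHC class II. The protein further takes part in LC3 attachment to single membranes, such as phagosomes.

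The libraries held 9467704 to 13768884 gene counts, and 16652 to 20918 genes had a count, with the highest number in CD11b WT 1. Markers of the subsets ran opposite to the subset labels. The 20 markers of type 1 conventional dendritic cells summed to 13119 to 14603 CPM, normalised read counts scaled to library size, at the label CD11b and to 2914 to 3435 CPM at the label CD8. The 25 markers of type 2 cells summed to 1185 to 1350 CPM (label CD11b) and 3797 to 4331 CPM (label CD8). The labels were kept as given, and the pooled genotype effect does not depend on which of the subset labels is which. Replicates at a label were single mice, while the same mice may recur across labels, so p-values measure only the spread between these libraries.

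In the pooled fit, 28 of 14528 genes were called at an adjusted p under 0.05 (0.193%), 15 higher in KO (0.103%) and 13 lower (0.0895%). Each label alone gave 21 called genes (0.145% at the label CD11b and 0.145% at the label CD8). Of the 28, 8 were called at both labels as well, 10 at a single label, and 10 at neither (0.0688% of genes), so that the last were called by the pooled fit alone. The median standard error (SE) of the log2 fold change over all genes was 0.24 in the pooled fit, against 0.33 at each label, and the median pooled log2 fold change was 0.00. The difference of the genotype effects between the labels was called for 3 genes (0.0206%), Plcb4, Gbp3 and Gbp2, and 793 genes had an unadjusted p under 0.05 (5.46%).

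Genes called at one label were set against the effect at the other label, whose fold change comes from other libraries but whose spread is shared with the call. Of the 21 called at the label CD11b, 20 had the same sign at the label CD8, and 12 of these had an unadjusted p under 0.05 there, against 6.52% of all genes tested at that label. Of the 21 called at the label CD8, 17 had the same sign at the label CD11b and 14 of these had an unadjusted p under 0.05 there, against 6.42% of all genes. These tests are therefore not fully independent of the calls, and libraries of the labels may come from the same mice.

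**Figure D1:**
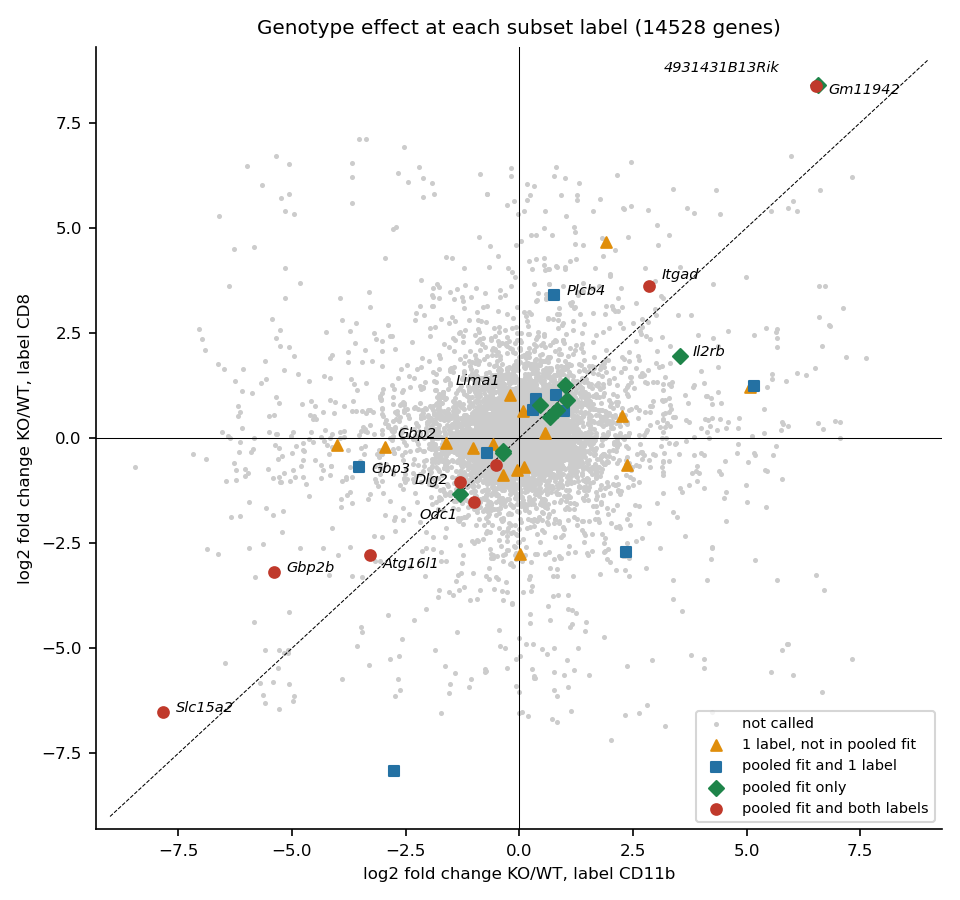
Log2 fold change of KO over WT at the label CD11b (x axis) and at the label CD8 (y axis) for 14528 genes, coloured by where a gene was called, with the dashed line at equal effects. The 8 genes called at both labels and the 10 called in the pooled fit alone have the same sign at both labels, while Gbp2, Gbp3 and Plcb4 lie far from the line.

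The genes with the strongest shared change included the targeted gene, a peptide transporter, an enzyme of polyamine synthesis, an interferon-inducible GTPase and an integrin chain. Slc15a2, Gbp2b, Atg16l1, Odc1, Arhgef6 and Gcnt2 fell and Itgad rose in KO, at both labels and in the pooled fit. The eighth gene, Gm11942, is a predicted pseudogene, outside the rule for named genes and chosen after its values were seen.

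Atg16l1 (ENSMUSG00000026289, chr1:87755870-87792428, GRCm38) stood at 24.1, 32.7 and 13.3 CPM in CD11b WT, 3.03 and 1.83 in CD11b KO, 19.5, 15.2 and 17.5 in CD8 WT and 1.73 and 3.31 in CD8 KO. The KO libraries were all below the WT libraries, so no library went against its genotype label. KO differed from WT by −3.03 ± 0.29 on the log2 scale (SE; edgeR adjusted p = 1.11e-06), a level 87.7% lower in KO. Transcript from this gene was still counted in each KO library, and where in the gene the deletion lies is not given in the labels.

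Slc15a2 (ENSMUSG00000022899, chr16:36750177-36784962) encodes PEPT2, a proton-coupled transporter of di- and tripeptides. It stood at 72.0, 79.9 and 75.1 CPM in CD11b WT, 0.505 and 0.167 in CD11b KO, 108, 112 and 95.1 in CD8 WT and 0.659 and 1.65 in CD8 KO, so that KO and WT were far apart at both labels. The KO libraries held 34 counts in all, against 6057 in WT. In the pooled fit the log2 fold change was −6.93 ± 0.22 (SE; edgeR adjusted p = 1.23e-15), 122-fold lower in KO. The effects were −7.83 ± 0.32 at the label CD11b and −6.51 ± 0.27 at the label CD8, and their difference had an edgeR adjusted p of 0.866. Of the other SLC15 transporters tested, Slc15a3 had −0.21 and Slc15a4 −0.01 in the pooled fit (edgeR adjusted p = 0.643 and 0.996), so 1 of 3 tested members of the family was called.

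Odc1 (chr12:17544794-17551505) encodes ornithine decarboxylase, the first and rate-limiting enzyme of polyamine synthesis. It stood at 165, 147 and 167 CPM in CD11b WT, 85.6 and 73.9 in CD11b KO, 65.3, 50.3 and 58.1 in CD8 WT and 22.2 and 18.1 in CD8 KO. Within each label the KO libraries were below the WT libraries, while the CD11b KO libraries still stood above the CD8 WT libraries. The pooled log2 fold change was −1.24 ± 0.12 (SE; edgeR adjusted p = 1.11e-06), a level 57.6% lower in KO. Odc1 was the only called gene of 24 tested genes of polyamine metabolism, whose median was −0.02.

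Gbp2b (chr3:142594847-142619179), an interferon-inducible guanylate-binding GTPase, stood at 105, 193 and 176 CPM in CD11b WT, 5.25 and 2.42 in CD11b KO, 4.64, 11.6 and 7.00 in CD8 WT and 1.24 and 0.435 in CD8 KO. The groups did not overlap within a label, and the pooled log2 fold change was −4.91 ± 0.37 (SE; edgeR adjusted p = 2.58e-08), 30.0-fold lower in KO. Gbp2b had −5.39 at the label CD11b and −3.19 at the label CD8, a difference that was not called. Its neighbour Gbp3 fell in the pooled fit too, by 3.65-fold (log2 fold change −1.87 ± 0.36, edgeR adjusted p = 0.026). Gbp3 stood at 74.5, 108 and 101 CPM in CD11b WT, 6.36 and 9.92 in CD11b KO, 43.7, 65.1 and 72.6 in CD8 WT and 33.8 and 41.7 in CD8 KO. The effect on Gbp3 differed between labels, with −3.52 ± 0.25 at the label CD11b and −0.68 ± 0.21 at the label CD8 (edgeR adjusted p of the difference = 2.73e-05), so that 1 pooled value describes neither. Gbp2, next to Gbp2b, had −1.39 in the pooled fit (edgeR adjusted p = 0.13) and was not called there.

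The promoters of Gbp2b and Gbp3 are shown because these neighbours fell together. Windows of 300 bases around the RefSeq gene start, 250 before and 50 after it (GRCm38.p6), were found for 17 of the 28 called genes, 26 windows in all. The interferon-stimulated response element was searched on both strands as GAAA, any 2 bases and GAAA again. It was in 2 of the 26 windows, those of Gbp2b and Gbp3, and in 3.44% of 32851 promoters of the same length. Matches are in capitals, and in Gbp3 they are 2 overlapping matches. Gbp2b has the window chr3:142594597-142594896 and Gbp3 the window chr3:142559794-142560093, both on the plus strand:
Gbp2b: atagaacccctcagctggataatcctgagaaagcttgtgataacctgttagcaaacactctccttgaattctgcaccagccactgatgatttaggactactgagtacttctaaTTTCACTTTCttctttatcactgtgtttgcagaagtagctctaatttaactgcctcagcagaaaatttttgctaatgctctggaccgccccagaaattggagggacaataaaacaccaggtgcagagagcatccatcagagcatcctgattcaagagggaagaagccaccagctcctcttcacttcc
Gbp3: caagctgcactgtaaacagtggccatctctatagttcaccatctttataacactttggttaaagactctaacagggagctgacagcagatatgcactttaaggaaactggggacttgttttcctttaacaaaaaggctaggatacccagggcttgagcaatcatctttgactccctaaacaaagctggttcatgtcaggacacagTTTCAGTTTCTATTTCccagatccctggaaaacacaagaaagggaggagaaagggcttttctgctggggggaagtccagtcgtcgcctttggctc
A match describes the letters only. The cAMP response element TGACGTCA was in none of the 26 windows (1.79% of promoters), the AP-1 motif TGANTCA in 1, that of Gbp2b (7.81%), and the E-box CACGTG in 2, both of Dgkh (7.15%).

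The guanylate-binding list as a whole had 2 of 8 tested members called, both lower, and a median of −0.17. The others that were not called, named after their values were seen, had pooled log2 fold changes of 0.15 (Gbp4), −0.01 (Gbp5), −0.26 (Gbp7), 0.15 (Gbp8) and −0.08 (Gbp9). Of 40 other interferon-response genes tested, 0 were called by edgeR in the pooled fit, and 4 were higher and 1 lower at an unadjusted p under 0.05, against 3.93% and 3.73% of all genes. Usp18, an interferon-induced ISG15 protease, had the smallest p of that list, with −0.53 ± 0.15 (SE; edgeR adjusted p = 0.213). Reads that mapped to more than 1 place were given to no gene, so only sequence that tells these related genes apart was counted.

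Itgad (chr7:128154376-128223816) encodes the integrin alpha D chain, which pairs with the beta 2 chain on macrophages and other leukocytes. It stood at 4.56, 1.66 and 1.77 CPM in CD11b WT, 16.5 and 22.4 in CD11b KO, 9.72, 3.71 and 5.87 in CD8 WT and 73.6 and 83.9 in CD8 KO, with each KO library above every WT library. KO differed from WT by 3.28 ± 0.26 on the log2 scale (SE; edgeR adjusted p = 3.58e-08), 9.72-fold higher in KO. Its neighbour Itgax, which encodes CD11c, had 0.18 ± 0.07 (edgeR adjusted p = 0.532). Of 8 tested genes of beta 2 integrins and their locus, 1 was called, and 2 more had an unadjusted p under 0.05, both higher. Over all genes, 0.103% were called higher and 3.93% were higher at that unadjusted p. Red pulp macrophages are a splenic cell type that carries Itgad. Of 17 markers of these cells, 0 were called by edgeR, 14 had a positive pooled log2 fold change and 6 had an unadjusted p under 0.05, all higher, against 3.93% of all genes. Those markers summed to 170 to 205 CPM in CD11b WT, 198 to 235 in CD11b KO, 345 to 453 in CD8 WT and 540 to 564 in CD8 KO, and none was at 0 in all libraries. The part of these cells in the Itgad result was not tested. In bulk samples, a change in the number of cells of a type and a change in RNA per cell cannot be told apart.

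Arhgef6 (chrX:57231485-57338729) encodes alpha-PIX, an exchange factor for Rac and Cdc42. It stood at 152, 106 and 121 CPM in CD11b WT, 60.3 and 42.2 in CD11b KO, 141, 123 and 137 in CD8 WT and 66.8 and 63.8 in CD8 KO, and the KO libraries were below every WT library. In the pooled fit the log2 fold change was −1.17 ± 0.12 (SE; edgeR adjusted p = 1.89e-06), a level 55.5% lower. It was the 1 called gene of 21 tested genes of Rac and Cdc42 exchange factors and effectors. Gcnt2 (chr13:40859754-40960892), the enzyme that branches poly-N-acetyllactosamine chains, stood at 475, 415 and 439.8 CPM in CD11b WT, 303 and 317 in CD11b KO, 284, 296 and 312 in CD8 WT and 195 and 187 in CD8 KO. Its pooled log2 fold change was −0.58 ± 0.07 (SE; edgeR adjusted p = 4.31e-05), a level 32.9% lower, the smallest change among the genes called at both labels. The KO libraries were below the WT libraries within each label.

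Gm11942 (chr4:32964888-32965232) is annotated as a processed pseudogene. It stood at 0.228, 0.226 and 0.093 CPM in CD11b WT, 16.4 and 20.1 in CD11b KO, 0, 0.0905 and 0 in CD8 WT and 10.9 and 17.8 in CD8 KO, or 740 counts in KO against 8 in WT. The pooled log2 fold change was 7.07 ± 0.43 (SE; edgeR adjusted p = 4.46e-10). In CD8 WT a single count was found, and at that label the ratio of KO to WT was 439 (95% counting interval 78.3 to 17394). Reads of a processed pseudogene can derive from a near-identical copy elsewhere, so the identity of this transcript is uncertain.

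**Figure D2:**
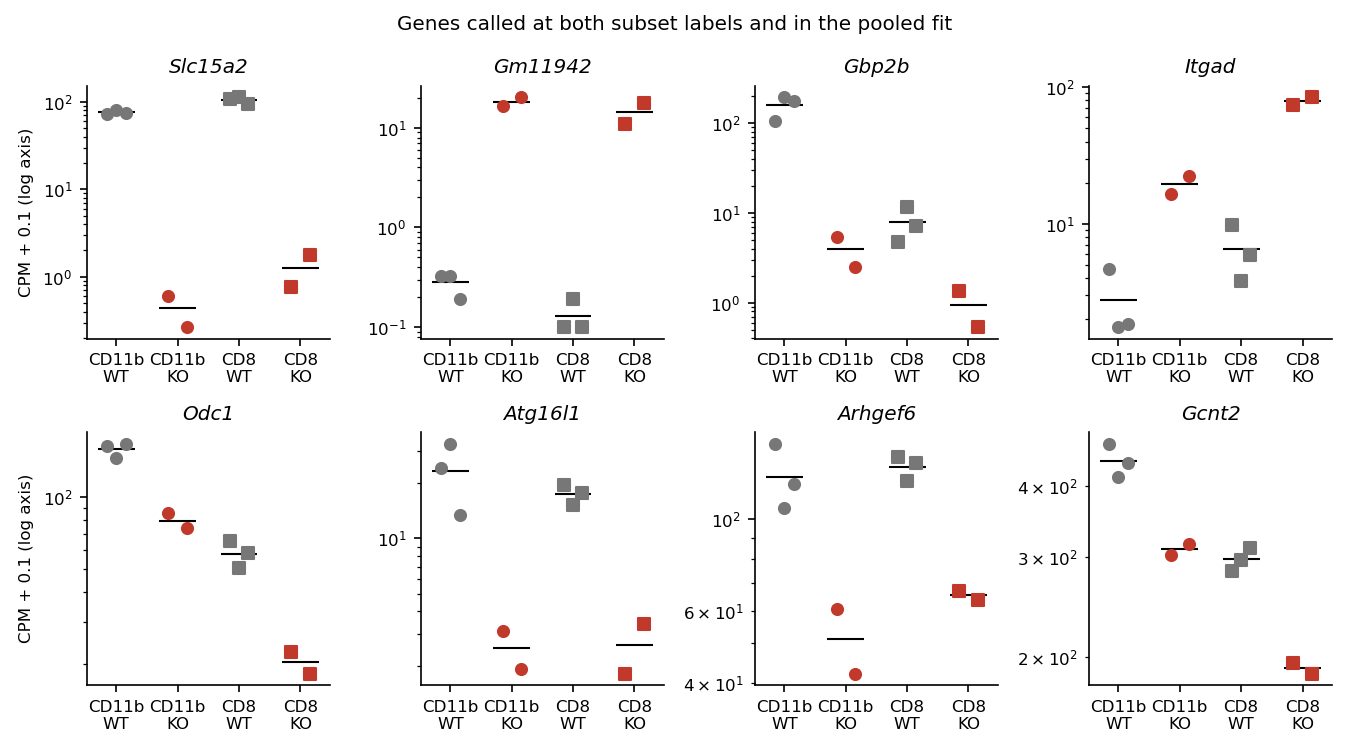
CPM + 0.1 on a log axis in each library (circles, label CD11b; squares, label CD8; grey, WT; red, KO; bar, group mean) for the 8 genes called at both labels and in the pooled fit. KO and WT libraries of a label do not overlap in any panel, with Itgad and Gm11942 higher in KO and the other 6 lower.

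These 8 genes kept their calls without any 1 of the 10 libraries and when the libraries were summed by genotype and replicate number (edgeR). The exact permutation test within labels gave each of them its smallest possible p, 0.01 over 100 arrangements, two-sided. These genes were called on the same counts and their groups do not overlap at either label. That p therefore follows largely from the choice, and nothing is read from it. The test permutes libraries of the labels separately. With same-numbered libraries moved together, as 1 mouse, the smallest p the design allows is 0.1.

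Among the genes called in the pooled fit and at a single label, the change at the other label had the same sign in 9 of 10. The remaining gene, Mmp9, had 1 count at that other label, too few to give a sign. Higher in KO were Plcb4, Hist1h4b, Irf4, Ighg3, Gm6472 and Gpr137b-ps, and lower were Mmp9, Gbp3, Ly86 and Gm34084. Effects at the labels differed for several of them.

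Plcb4 (chr2:135659011-136014593) encodes a phospholipase C that is activated by Gq-coupled receptors. It stood at 68.3, 57.2 and 73.7 CPM in CD11b WT, 112 and 114 in CD11b KO, 13.3, 8.06 and 14.3 in CD8 WT and 124 and 125 in CD8 KO, and KO was above WT within each label. KO differed from WT by 2.08 ± 0.31 on the log2 scale (SE; edgeR adjusted p = 0.00164), made of 0.77 ± 0.16 at the label CD11b (edgeR adjusted p = 0.053) and 3.39 ± 0.18 at the label CD8 (edgeR adjusted p = 2.35e-11). The KO libraries of both labels thus had levels of 112 to 125 CPM, while the WT libraries of the labels were apart. Plcb1, a related phospholipase that starts 873 kb before Plcb4, stood at 0.835, 0 and 0 CPM in CD11b WT, 2.52 and 1.00 in CD11b KO, 0.864, 0.543 and 1.51 in CD8 WT and 9.72 and 8.36 in CD8 KO. Its pooled log2 fold change was 2.93 ± 0.66 (SE; edgeR adjusted p = 0.0842), and it was not called. Of 11 phospholipase C genes tested, 1 was called and 1 more had an unadjusted p under 0.05, both higher. Over all genes, 0.103% were called higher and 3.93% were higher at that unadjusted p.

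Irf4 (chr13:30749226-30766976), a transcription factor of type 2 dendritic cells, stood at 34.4, 30.3 and 32.5 CPM in CD11b WT, 36.3 and 43.8 in CD11b KO, 227, 226 and 169 in CD8 WT and 350.1 and 309 in CD8 KO. KO was above WT within each label. In the pooled fit the log2 fold change was 0.50 ± 0.10 (SE; edgeR adjusted p = 0.032), with 0.31 at the label CD11b, where it was not called. Of 24 dendritic cell transcription factors, Irf4 was the only one called. Hist1h4b (chr13:23757013-23757409), a histone H4 gene, stood at 26.2, 16.1 and 25.5 CPM in CD11b WT, 38.3 and 40.5 in CD11b KO, 22.1, 24.4 and 24.7 in CD8 WT and 46.1 and 50.5 in CD8 KO and changed by 0.92 ± 0.14 (SE) on the log2 scale in the pooled fit (edgeR adjusted p = 0.0017). Ly86 (chr13:37345208-37419036), which encodes MD-1, the partner of the Toll-like receptor homologue RP105, stood at 67.8, 69.2 and 65.9 CPM in CD11b WT, 43.6 and 38.7 in CD11b KO, 113, 97.0 and 97.8 in CD8 WT and 72.6 and 87.7 in CD8 KO. Its pooled log2 fold change was −0.53 ± 0.10 (SE; edgeR adjusted p = 0.026), and KO was below WT within each label.

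Mmp9 (chr2:164940780-164955850), the gene of gelatinase B, had 1 count in all 5 libraries of the label CD11b, so that label gives no fold change. In CD8 WT it stood at 32.1, 25.4 and 19.4 CPM and in CD8 KO at 3.95 and 3.83 CPM. The pooled value of −2.59 ± 0.43 (SE; edgeR adjusted p = 0.00546) therefore rests on the label CD8. With the mean of both label effects in place of the additive fit the call ended (edgeR adjusted p = 0.923). Mmp9 is also a neutrophil gene. Of the 14 neutrophil markers listed, only 4 passed the filter on low counts, and S100a8, Elane, Retnlg and Mmp8 had fewer than 10 counts over all libraries. The list summed to 39.7 to 49.1 CPM in CD8 WT and 24.1 to 24.9 CPM in CD8 KO, sums that contain Mmp9 itself. Without Mmp9 they were 17.1, 19.7 and 20.3 CPM in CD8 WT and 20.9 and 20.3 CPM in CD8 KO, and the groups overlapped. Among these remaining markers Csf3r, which is also on the list of type 2 dendritic cell markers, held 430 counts in CD8 WT and 398 in CD8 KO. Mpo held 59 and 25, and Ltf 43 and 26. The part of neutrophils in the Mmp9 result was not tested.

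Ighg3 (chr12:113356224-113361232), an immunoglobulin heavy chain constant gene of B cells and plasma cells, stood at 0.38, 0.151 and 0.093 CPM in CD11b WT, 9.08 and 7.00 in CD11b KO, 15.2, 6.52 and 3.03 in CD8 WT and 15.2 and 23.8 in CD8 KO. KO was above WT at the label CD11b, while the groups overlapped at the label CD8. The pooled log2 fold change was 2.71 ± 0.54 (SE; edgeR adjusted p = 0.0321), with 5.16 ± 0.64 at the label CD11b and 1.24 ± 0.47 at the label CD8 (unadjusted p of the difference = 0.000103, edgeR adjusted p = 0.167). Of 14 plasma cell markers tested, 11 had a positive value and 8 an unadjusted p under 0.05, all higher, against 3.93% of all genes. Of 16 markers of B cells, 15 had a positive value and 9 an unadjusted p under 0.05, all higher, against the same 3.93%, and edgeR called 0 of them. The B cell markers summed to 316 to 404 CPM in CD11b WT, 303 to 653 in CD11b KO, 640 to 1235 in CD8 WT and 1106 to 2938 in CD8 KO, highest in CD8 KO 2. The plasma cell markers summed to 101 to 130, 135 to 138, 153 to 185 and 190 to 380 CPM in the same order. Without Ighg3 itself those sums were 100.4 to 129, 126 to 131, 150.5 to 178 and 175 to 356 CPM, so that KO and WT overlapped at both labels. The B cell sums were 303 CPM in CD11b KO 1 and 1106 CPM in CD8 KO 1, neither above the WT range of its label. They were 653 CPM in CD11b KO 2 and 2938 CPM in CD8 KO 2, libraries that may come from 1 mouse. Counts of markers over the same libraries are therefore not separate tests of genotype. None of the B cell or plasma cell markers was at 0 in all libraries, and the part of these cells in the Ighg3 result was not tested.

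The remaining genes of this class were predicted or pseudogene models, of which Gm6472 and Gm34084 were named after their values were seen. Gm6472, a transcribed processed pseudogene on chromosome X, had 0.82 ± 0.12 (edgeR adjusted p = 0.00164) and stood at 64.9, 89.8 and 105 CPM in CD11b WT, 198 and 148 in CD11b KO, 61.8, 71.3 and 82.9 in CD8 WT and 104 and 120.4 in CD8 KO. Gpr137b-ps, a transcribed pseudogene of a lysosomal membrane protein gene, had 0.66 ± 0.13 (edgeR adjusted p = 0.026), made of 0.37 at the label CD11b and 0.93 at the label CD8, whereas Gpr137b itself had −0.29 (edgeR adjusted p = 0.449). Gm34084, a long noncoding RNA, had −3.73 ± 0.75 (edgeR adjusted p = 0.0329). It had 80 counts in CD8 WT and 0 in CD8 KO, at least 20.4-fold lower if 3 counts in the group are taken as a floor, and 190 against 17 counts at the label CD11b.

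In 7 of the 10 genes of this class the call ended when some library was left out. Plcb4, Hist1h4b and Gm6472 kept theirs without any 1 library. Mmp9 lost its call without CD8 WT 1, CD8 WT 2, CD8 KO 1 or CD8 KO 2 (with adjusted p of 0.0597 to 0.119 in edgeR), Gbp3 without CD11b KO 1 or CD11b KO 2 (0.084 to 0.188) and Ly86 without CD11b WT 3, CD11b KO 1, CD11b KO 2, CD8 WT 1 or CD8 KO 1 (0.0537 to 0.127). The call of Gpr137b-ps ended without CD8 WT 2, CD8 WT 3, CD8 KO 1 or CD8 KO 2 (edgeR adjusted p = 0.0719 to 0.153) and that of Irf4 without any 1 of 7 libraries, CD11b WT 3, CD11b KO 2, CD8 WT 1, CD8 WT 2, CD8 WT 3, CD8 KO 1 or CD8 KO 2 (0.0537 to 0.195). Ighg3 lost it without any 1 of 7, CD11b WT 1, CD11b WT 2, CD11b WT 3, CD11b KO 1, CD11b KO 2, CD8 WT 2 or CD8 WT 3 (edgeR adjusted p = 0.0611 to 0.109), and Gm34084 without any 1 of 9, all but CD11b KO 2 (0.0537 to 0.119). Without CD11b KO 2, Gm34084 had −5.64. Summed by genotype and number, which treats same-numbered libraries as 1 mouse, Ly86, Ighg3 and Gm34084 were not called (edgeR adjusted p = 0.137, 0.115 and 0.0678). With genotype and number as a random block in limma-voom, Ighg3 and Gm34084 were not called (limma adjusted p = 0.0512 and 0.0889), and DESeq2 did not call Gbp3 (adjusted p = 0.0578).

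The 10 genes called in the pooled fit alone had the same direction at both labels, and none was called at either. Higher in KO were the lipid kinase gene Dgkh, the noncoding RNA Kcnq1ot1, the cytokine receptor chain Il2rb, the motor protein gene Myo6, the signalling gene Smad3 and the predicted genes Gm47283 and 4931431B13Rik. Lower in KO were the immediate early transcription factor gene Fosb, the G protein regulator Rgs2 and the scaffold gene Dlg2. The predicted genes were named after their values were seen.

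All 10 had an unadjusted p under 0.05 at both labels. In all 10 the groups did not overlap at either label, with the same direction at both, as in 3.32% of all genes, and 0 of 10 had an unadjusted p under 0.05 for the difference of effects. These counts follow in part from the choice, since a pooled call at neither label needs 2 similar effects of moderate size, and nothing is read from these counts. Of all 28 called genes, 27 had the same sign at both labels (52.5% of all genes) and 26 did not overlap at either, while 9 had an unadjusted p under 0.05 for the difference of effects, against 5.46% of all genes. The gene without the same sign was Mmp9, with 1 count at the label CD11b, too few to give a sign. The counts of sign and overlap follow in part from the choice too, since a common effect favours both, and nothing is read from them. Pooled adjusted p in this class reached 0.0384 for Smad3, just inside the threshold. Just outside it lay the chemokine gene Ccl6, with −0.66 ± 0.14 (edgeR adjusted p = 0.0508).

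**Figure D3:**
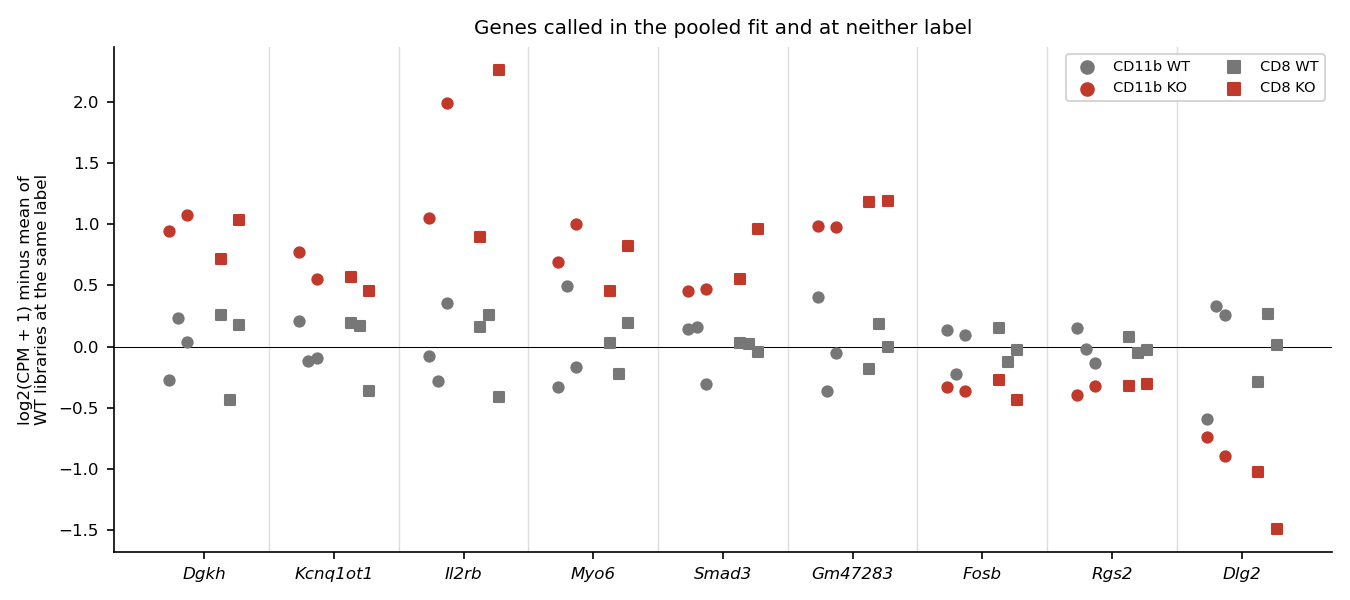
Log2(CPM + 1) of each library minus the mean of the WT libraries at the same label, for 9 of the 10 genes called in the pooled fit and at neither label (circles, label CD11b; squares, label CD8; grey, WT; red, KO). The noncoding 4931431B13Rik, at 0 in all WT libraries, is not drawn, and within each label the KO libraries lie on one side of the WT libraries for all 9 genes.

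Dgkh (chr14:78558750-78732776) encodes diacylglycerol kinase eta, which turns diacylglycerol into phosphatidic acid. It stood at 9.04, 13.3 and 11.4 CPM in CD11b WT, 22.4 and 24.6 in CD11b KO, 16.1, 9.60 and 15.2 in CD8 WT and 22.5 and 28.3 in CD8 KO. KO was above every WT library, and the pooled log2 fold change was 0.98 ± 0.18 (SE; edgeR adjusted p = 0.0205), 1.97-fold higher. At the labels alone it had 1.06 ± 0.26 (edgeR adjusted p = 0.195, CD11b) and 0.90 ± 0.26 (0.304, CD8).

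Smad3 (chr9:63646767-63757994), a transcription factor downstream of the TGF-beta receptor, stood at 47.3, 48.0 and 34.5 CPM in CD11b WT, 59.1 and 59.8 in CD11b KO, 23.5, 23.4 and 22.3 in CD8 WT and 34.4 and 45.9 in CD8 KO. KO differed from WT by 0.62 ± 0.13 on the log2 scale (SE; edgeR adjusted p = 0.0384), 1.54-fold higher in KO. Of 14 tested genes of TGF-beta signalling and the regulatory T cell axis, 1 was called. Tgfb3, the ligand gene of that list with the smallest p, stood at 1.97, 2.04 and 1.49 CPM in CD11b WT, 6.66 and 4.58 in CD11b KO, 3.46, 3.53 and 0.852 in CD8 WT and 7.08 and 10.2 in CD8 KO and had 1.66 ± 0.38 (SE; edgeR adjusted p = 0.0975), outside the threshold. KO was above WT within each label for both genes.

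Il2rb (chr15:78479256-78495271), the beta chain of the receptors for interleukin-2 and interleukin-15, stood at 0.152, 0 and 0.558 CPM in CD11b WT, 1.51 and 3.83 in CD11b KO, 4.0, 4.35 and 2.37 in CD8 WT and 7.33 and 20.5 in CD8 KO. Counts were low at the label CD11b, with 8 in WT and 61 in KO, and the highest value was in CD8 KO 2. In the pooled fit the log2 fold change was 2.55 ± 0.50 (SE; edgeR adjusted p = 0.0282). Il2rb is carried by NK cells and T cells. Of 5 NK cell markers tested, 1 had a positive pooled value, and of 8 T cell markers, 2 had one, with none at an unadjusted p under 0.05 in either list. The NK cell markers summed to 61.5 to 62.2 CPM in CD11b WT, 51.1 to 60.5 in CD11b KO, 150.1 to 162 in CD8 WT and 114 to 130.3 in CD8 KO, so KO was the lower group at both labels. Klra8 was at 0 in all libraries. The T cell markers summed to 33.0 to 43.5, 34.0 to 38.8, 92.5 to 101 and 77.9 to 92.0 CPM in the same order, with none at 0 in all libraries. Ncr1, Klrb1c, Nkg7, Prf1, Gzma, Cd3d, Cd3e, Cd3g, Trbc1, Trbc2 and Bcl11b did not pass the filter on low counts. Among the NK cell markers, Klrk1 and Tbx21 held 3722 and 3219 counts in WT, against 75 for Eomes and 47 for Klre1. Among the T cell markers, Tcf7 held 2590 counts in WT, against 51 for Trac. B cell markers had their highest sum in CD8 KO 2 as well. The part of NK cells, T cells and B cells in the Il2rb result was not tested. Without CD8 KO 2 Il2rb had 2.5 (edgeR adjusted p = 0.401).

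Myo6 (chr9:80165031-80311729) encodes myosin VI, a motor that moves towards the minus end of actin and binds autophagy receptors. It stood at 32.6, 58.5 and 36.7 CPM in CD11b WT, 67.2 and 83.7 in CD11b KO, 16.0, 13.2 and 18 in CD8 WT and 21.8 and 28.3 in CD8 KO and changed by 0.75 ± 0.15 (SE) on the log2 scale in the pooled fit (edgeR adjusted p = 0.0375). Kcnq1ot1 (chr7:143203458-143296549), an imprinted noncoding RNA transcribed against Kcnq1, stood at 96.7, 77.1 and 78.2 CPM in CD11b WT, 144 and 123 in CD11b KO, 59.3, 58.6 and 40.1 in CD8 WT and 77.3 and 71.2 in CD8 KO. Its pooled log2 fold change was 0.58 ± 0.11 (SE; edgeR adjusted p = 0.0243), 1.5-fold higher. KO was above WT within each label for both genes. Gm47283 was the only gene annotated on chromosome Y that passed the filter. The Y-linked genes Ddx3y, Eif2s3y, Kdm5d and Uty did not pass it, and Xist, transcribed from an inactive X chromosome, had 9186 to 14998 counts in each library. Gm47283 stood at 12.0, 6.64 and 8.46 CPM in CD11b WT, 18.4 and 18.2 in CD11b KO, 7.13, 9.51 and 8.23 in CD8 WT and 20.0 and 20.0 in CD8 KO and had 1.14 ± 0.20 (SE; edgeR adjusted p = 0.00976).

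Dlg2 (chr7:90476672-92449247), a membrane-associated guanylate kinase known as PSD-93, stood at 1.67, 4.07 and 3.81 CPM in CD11b WT, 1.41 and 1.17 in CD11b KO, 22.2, 33.1 and 27.6 in CD8 WT and 12.9 and 9.06 in CD8 KO. KO was below WT within each label. The pooled log2 fold change was −1.32 ± 0.26 (SE; edgeR adjusted p = 0.032), 2.5-fold lower, with −1.30 and −1.33 at the labels.

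The pair with the smallest changes was lower in KO. Fosb (chr7:19302696-19310051), an AP-1 transcription factor of the immediate early class, stood at 1473, 1148 and 1433 CPM in CD11b WT, 1066 and 1042 in CD11b KO, 3408, 2817 and 3007 in CD8 WT and 2544 and 2272 in CD8 KO. Its pooled log2 fold change was −0.36 ± 0.07 (SE; edgeR adjusted p = 0.0276), a level 21.9% lower. Rgs2 (chr1:143999338-144004161), which speeds the turn-off of Gq signalling, stood at 456, 406 and 375 CPM in CD11b WT, 312 and 329.9 in CD11b KO, 414, 378 and 386 in CD8 WT and 313 and 317 in CD8 KO. It had −0.34 ± 0.07 (SE; edgeR adjusted p = 0.0329), a level 21.0% lower. Effects at the labels were nearly equal, with −0.36 and −0.35 for Fosb and −0.36 and −0.32 for Rgs2.

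The promoters of Fosb and Rgs2 are shown because both are stimulus-responsive genes that were called by pooling alone. Neither window held the whole cAMP response element. Its half-site TGACG, searched on both strands and chosen after the sequences were seen, is in capitals. The windows are chr7:19309996-19310295 for Fosb and chr1:144004100-144004399 for Rgs2, both on the minus strand (RefSeq, GRCm38.p6), 5′ to 3′ along the gene:
Fosb: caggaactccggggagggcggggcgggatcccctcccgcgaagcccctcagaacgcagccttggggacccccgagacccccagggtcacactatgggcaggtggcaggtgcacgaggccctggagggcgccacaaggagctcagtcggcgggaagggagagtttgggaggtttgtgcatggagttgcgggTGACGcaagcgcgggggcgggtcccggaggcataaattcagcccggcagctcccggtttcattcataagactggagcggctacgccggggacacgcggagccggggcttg
Rgs2: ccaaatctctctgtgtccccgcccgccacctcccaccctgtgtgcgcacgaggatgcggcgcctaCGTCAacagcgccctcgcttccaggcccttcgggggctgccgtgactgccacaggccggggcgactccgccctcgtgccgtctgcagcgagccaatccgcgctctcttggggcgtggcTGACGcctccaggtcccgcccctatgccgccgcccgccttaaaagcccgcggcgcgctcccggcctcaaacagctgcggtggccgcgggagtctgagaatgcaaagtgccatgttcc
The half-site was found once in Fosb and in 2 places in Rgs2. It was in 8 of the 26 windows of called genes and in 20.8% of all promoters, so this short motif is common and its presence is a description only.

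Fosb belongs to a list in which every member pointed the same way. Of 24 immediate early genes tested, 24 had a negative pooled log2 fold change, and 16 had an unadjusted p under 0.05, all lower, against 3.73% of all genes. Only Fosb was called. The median of the list was −0.25, with −0.22 at the label CD11b and −0.30 at the label CD8, while the median of all genes was 0.00. The next by p were Fosl2 (−0.24 ± 0.06), Btg2 (−0.25 ± 0.06) and Nr4a2 (−0.25 ± 0.07), with edgeR adjusted p of 0.13, 0.16 and 0.196. Fosl2, an AP-1 subunit, stood at 599, 551 and 564 CPM in CD11b WT, 496 and 516 in CD11b KO, 1566, 1594 and 1477 in CD8 WT and 1314 and 1200.4 in CD8 KO. KO was below WT within each label for Fosl2, Btg2, Nr4a1 and Fosb, 4 of the 24. Over all genes, 3.32% had groups that did not overlap at both labels with the same direction, higher or lower. Larger values with larger errors were seen for Fos (−0.47 ± 0.14), Jun (−0.40 ± 0.15) and Egr1 (−0.38 ± 0.14), named after their values were seen.

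**Figure D4:**
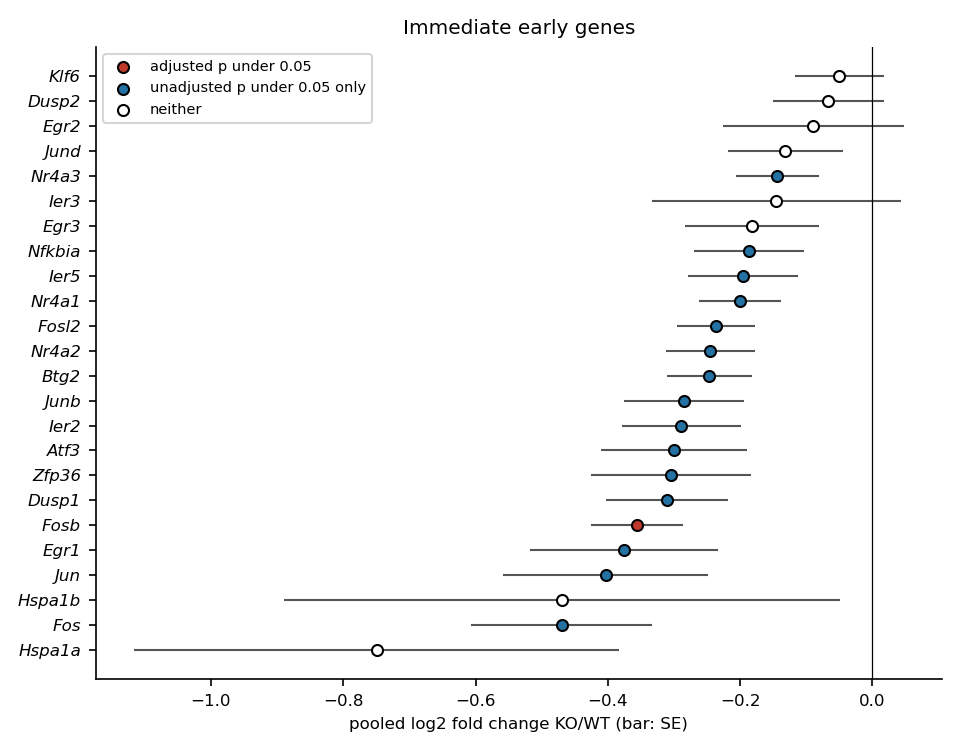
Pooled log2 fold change of KO over WT (points; bars, SE) for 24 immediate early genes, ordered by value. All 24 lie below 0, Fosb alone has an adjusted p under 0.05, and 15 more have an unadjusted p under 0.05.

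In 9 of the 10 genes called by pooling alone the call ended when some library was left out. Gm47283 kept its call without any 1 library. Dgkh lost it without CD11b KO 2 or CD8 KO 2 (edgeR adjusted p = 0.0886 to 0.116), Kcnq1ot1 without CD11b WT 3, CD11b KO 1 or CD8 KO 1 (0.0633 to 0.1) and Il2rb without CD11b KO 2, CD8 WT 2, CD8 WT 3 or CD8 KO 2 (0.0575 to 0.401). The call of 4931431B13Rik ended without CD11b KO 1, CD8 WT 1, CD8 WT 2, CD8 WT 3 or CD8 KO 1 (with adjusted p of 0.0561 to 0.194 in edgeR) and that of Fosb without any 1 of 6 libraries, CD11b WT 3, CD11b KO 1, CD11b KO 2, CD8 WT 1, CD8 WT 3 or CD8 KO 2 (0.0505 to 0.14). Myo6 lost it without any 1 of 7, CD11b WT 1, CD11b WT 3, CD11b KO 1, CD11b KO 2, CD8 WT 1, CD8 WT 2 or CD8 KO 2 (with adjusted p of 0.0644 to 0.238 in edgeR), and Dlg2 without any 1 of 7, CD11b WT 3, CD11b KO 1, CD11b KO 2, CD8 WT 2, CD8 WT 3, CD8 KO 1 or CD8 KO 2 (0.0549 to 0.215). Smad3 lost it without any 1 of 8, all but CD11b WT 1 and CD11b WT 2 (edgeR adjusted p = 0.0613 to 0.287), and Rgs2 without any 1 of 8, all but CD11b WT 2 and CD11b WT 3 (0.0569 to 0.119).

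When same-numbered libraries of a genotype were summed, so that n was 3 WT and 2 KO, 4 of the 10 kept their calls: Dgkh, Il2rb, Gm47283 and 4931431B13Rik. Not called were Kcnq1ot1 (edgeR adjusted p = 0.137), Dlg2 (0.175), Myo6 (0.198), Rgs2 (0.203), Smad3 (0.277) and Fosb (0.37). With genotype and number as a random block in limma-voom, Il2rb lost its call (limma adjusted p = 0.135), as it did with no block (0.128). With unstranded counts Il2rb and Smad3 were not called (edgeR).

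Some called genes had neighbours with values in the same direction. Beside Itgad, 4931431B13Rik is a gene model inside Itgad that is read from the opposite strand (chr7:128192050-128203328). It had 0 counts in 6 WT libraries and 110 in 4 KO libraries, at least 54.8-fold higher in KO with the same floor (edgeR adjusted p = 0.0282). Cox6a2, a cytochrome oxidase subunit gene also within that span, stood at 1.21, 1.89 and 0.558 CPM in CD11b WT, 6.26 and 3.08 in CD11b KO, 0, 0.815 and 0 in CD8 WT and 5.93 and 8.88 in CD8 KO and had 3.20 ± 0.69 (SE; edgeR adjusted p = 0.0554). Over the span of 4931431B13Rik, the strand that carries Itgad held 1385 counts in KO, against 110 on its own strand. Over the whole libraries the strand counted held 16.1 times as many counts as the opposite one, and the part of wrong-strand reads in this value was not tested.

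Gm25395 and Scarna6, small Cajal body RNAs inside the span of Atg16l1 on its strand, had −2.98 ± 0.64 and −1.93 ± 0.52 (edgeR adjusted p = 0.0564 and 0.17). Hpcal1, a calcium sensor gene 146 kb from Odc1, had −0.66 ± 0.15 (edgeR adjusted p = 0.113). Of 37 tested genes within 1 Mb of Hist1h4b, 11 had an unadjusted p under 0.05, and 8 of these, all histone genes, had negative values, with −0.52 for Hist1h3b (edgeR adjusted p = 0.124), opposite to Hist1h4b. Among the 11, the histone gene Hist1h2bc had a positive value, 0.31 (edgeR adjusted p = 0.629). Over all called genes, 65 of 540 pairs of a called gene and a tested neighbour within 1 Mb had an unadjusted p under 0.05 (12.0%). Of all genes tested, 3.93% were higher and 3.73% lower at that p. The pairs held 472 distinct neighbours, some genes being counted with more than 1 partner and some being called themselves, so the shares are not directly comparable. By chromosome, 6 of the 28 called genes lie on chromosome 13, which holds 4.01% of the genes tested, and 5 on chromosome 7, which holds 7.85%; no test of position was made.

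**Figure D5:**
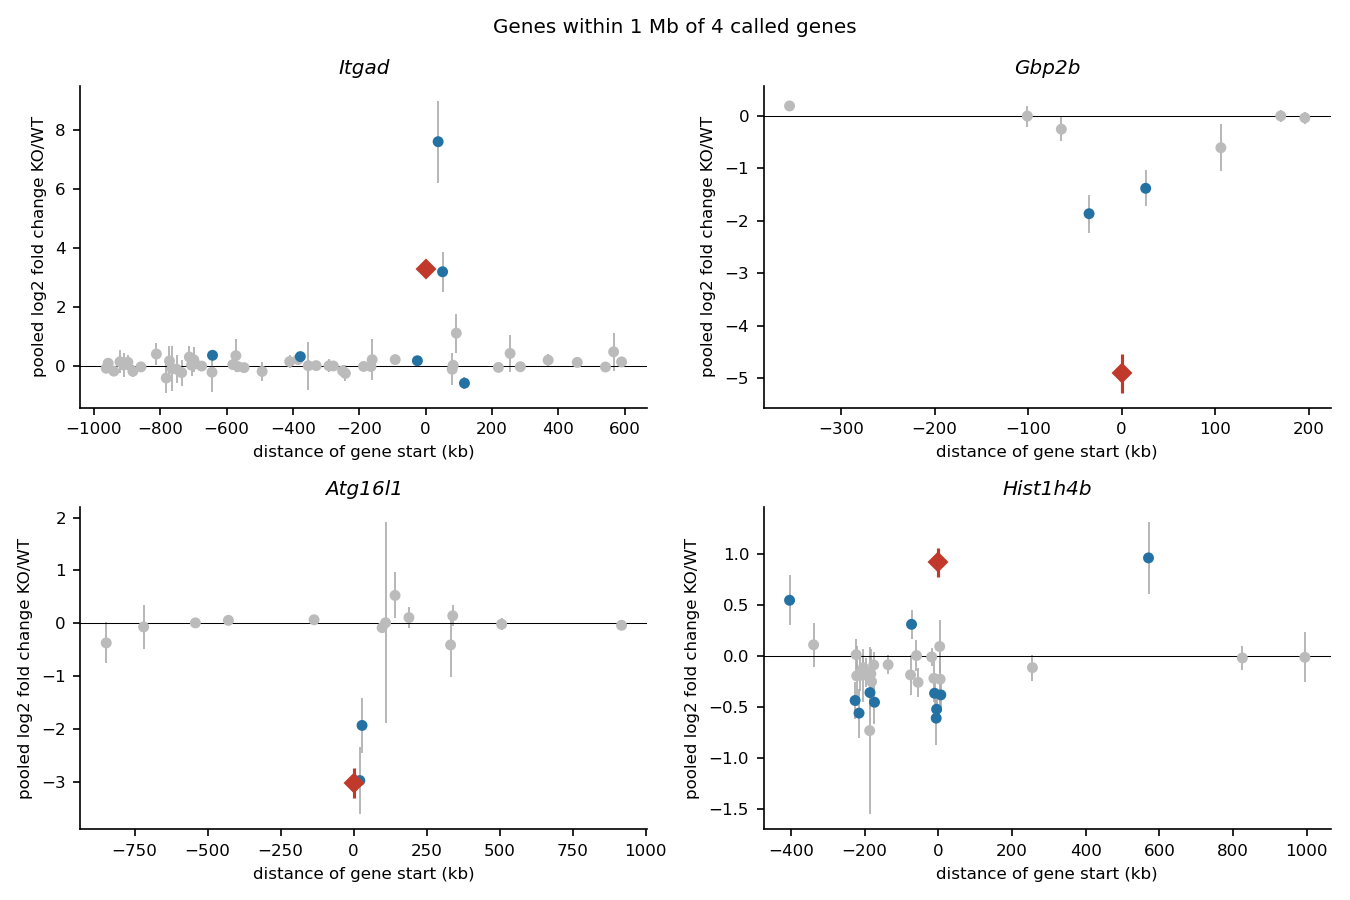
Pooled log2 fold change of KO over WT (points; bars, SE) against the distance of gene starts along the reference, for tested genes with a mean of at least 1 CPM within 1 Mb of Itgad, Gbp2b, Atg16l1 and Hist1h4b (red diamonds), with blue for an unadjusted p under 0.05. The panel of Itgad also shows 4931431B13Rik, at 7.61. Cox6a2 lies above 0 with Itgad, Gbp2 and Gbp3 below 0 with Gbp2b, and Gm25395 and Scarna6 below 0 with Atg16l1. Near Hist1h4b, 8 histone genes drawn in blue lie below 0.

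Other genes of the autophagy pathway stayed outside the threshold. Of 34 core autophagy genes, 1 was called, Atg16l1 itself, and 0 others had an unadjusted p under 0.05, and the list's median was 0.00. The closest by p were Atg12 (−0.34 ± 0.20), Atg16l2 (0.19 ± 0.13) and Gabarap (0.13 ± 0.09). Of 17 autophagy receptors and adaptors, 0 were called by edgeR. In that list 2 had an unadjusted p under 0.05, both higher, against 3.93% of all genes, led by Wdfy3 (0.23 ± 0.08). Of 29 lysosomal and TFEB-driven genes, 0 were called by edgeR. At an unadjusted p under 0.05, 1 was higher and 1 lower, against 3.93% and 3.73% of all genes.

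MHC class II presentation genes had mostly small negative values. Of 18 tested, 15 were negative, 0 were called by edgeR, and 6 were lower and 1 higher at an unadjusted p under 0.05, against 3.73% and 3.93% of all genes. Cd83, which protects surface MHC class II from degradation, stood at 1888, 1808 and 1778 CPM in CD11b WT, 1521 and 1491 in CD11b KO, 1999, 1605 and 1561 in CD8 WT and 1544 and 1249 in CD8 KO and had −0.29 ± 0.07 (SE; edgeR adjusted p = 0.124). H2-Ab1, the class II beta chain gene, stood at 8323, 9159 and 8402 CPM in CD11b WT, 7604 and 7902 in CD11b KO, 7999, 7954 and 7383 in CD8 WT and 7152 and 6396 in CD8 KO and had −0.18 ± 0.05 (SE; edgeR adjusted p = 0.17). KO was below WT within each label for both genes. The alpha chain gene H2-Aa had −0.13 ± 0.05 and H2-Eb1 −0.14 ± 0.05 (edgeR adjusted p = 0.575 and 0.407). Of 22 MHC class I presentation genes, 16 were positive and 0 were called by edgeR. In that list 4 were higher at an unadjusted p under 0.05, against 3.93% of all genes.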

How the data were processed

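RNA was sequenced in 10 libraries of sorted mouse spleen dendritic cells. The submitters' processing notes name STAR 2.5.0a and the build GRCm38, and the authors deposited read counts for each gene by strand, not normalised (53379 genes, with 4 lines for reads given to no gene left out). The strand column used summed to 16.1 times the opposite one. Symbols and positions are from GENCODE, which held 53274 of the identifiers. Reads mapped to more than 1 place (21.73% to 25.53%) were given to no gene. Reads could not be collapsed to molecules, and intervals and floors therefore cover only counting error.

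CPM values are counts scaled to TMM library sizes. After filterByExpr by group, 14528 genes were fitted in edgeR 4.0.16 (quasi-likelihood, R 4.3.3): an additive model of subset label and genotype over all 10 libraries (common dispersion 0.0883, 7 residual degrees of freedom), and a model of 4 group means for the effect at each label and their difference. P-values were adjusted by Benjamini-Hochberg over all genes and called under 0.05. The SE is the absolute log2 fold change over the square root of F. The exact permutation test on log2(CPM + 1) permuted genotypes within labels. Figures were drawn with Python 3.11.15.

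The members and the 44 gene lists were chosen with earlier results of these data known. Named were Atg16l1, Slc15a2 and Odc1, the called genes with a gene symbol other than a predicted model's and a mean of at least 1 CPM (up to 10 called at 1 label and up to 15 per direction called at neither), the 5 genes per label with the smallest p called there only, at most 4 genes per list by smallest p, and neighbours within 1 Mb. Replicate numbers were checked for pairing: deviations of libraries with the same genotype and number across labels correlated at 0.1004 to 0.149 in 5 of 5 pairs over 7548 genes with at least 10 CPM. The KO pairs share 1 value, 0.131, since deviations within each KO group mirror each other. The main fit and the permutation test did not use the replicate numbers. Only the blocked and summed alternatives treated them as pairing libraries across labels. Libraries of WT and KO with the same label and number had correlations of mixed sign (r from −0.0811 to 0.127). The highest lay within the range across labels, so these values do not settle which libraries are paired.

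Alternatives were RLE scaling, other filters, unstranded counts, fits without immunoglobulin genes or without mitochondrial and ribosomal RNA genes, blocks on the number, libraries summed by number, limma-voom (limma 3.58.1), DESeq2 1.42.0, single-label fits, and libraries left out with the 14528 genes kept. Leaving out both libraries of a number and limma-voom without block or weights were added after seeing the data. On simulated counts for the pooled comparison (13708 genes, 50 changed per size), 18% of 1.3-fold, 38% of 1.5-fold, 70% of 2-fold and 80% of 4-fold changes were recovered, and 7 of 110 calls were unchanged genes.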

Additional observations from a re-analysis of the deposited data

Results flagged for a closer look

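The genotype effect differed between the labels by the test of the difference for 3 genes. The effect at the label CD8 minus that at the label CD11b was 2.62 ± 0.24 (SE) on the log2 scale for Plcb4 (edgeR adjusted p = 4.72e-06), 2.84 ± 0.31 for Gbp3 (2.73e-05) and 2.74 ± 0.29 for Gbp2 (2.73e-05). Plcb4 was higher in KO in all comparisons of libraries within a label, and Gbp3 lower. Gbp2 stood at 69.9, 92.8 and 91.4 CPM in CD11b WT, 9.08 and 12.7 in CD11b KO, 49.8, 59.4 and 45.6 in CD8 WT and 34.0 and 55.6 in CD8 KO, so its groups overlapped at the label CD8.

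Counts on the opposite strand, used only in the unstranded alternative, were above 3 in every KO library and, scaled to library size, higher than in every WT library of the same label for 3 called genes. Itgad had 586 such counts in 4 KO libraries and 49 in 6 WT libraries, 4931431B13Rik 1385 and 55, and Plcb4 61 and 14. For 4931431B13Rik the opposite strand is that of Itgad, whose span contains it. The cause for Plcb4 was not tested.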

How the results depend on the processing

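The main counts were 28 genes called in the pooled fit, 21 at each label, 3 for the difference of effects and 10 called by pooling alone. Without a filter beyond 1 count they were 167, 71, 142, 41 and 66, and with DESeq2 79, 42, 54, 11 and 42. Limma-voom with quality weights gave 84 pooled, 63 at the label CD8 and 31 by pooling alone, and limma-voom without block or weights 62 pooled. The mean of the label effects gave 16 by pooling alone, and leaving out the subset covariate left 4 pooled calls. The difference of effects had 6 calls with unstranded counts and 5 without immunoglobulin genes. The label CD8 had 78 calls when only its 5 libraries were fitted. The causes were not tested.

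Replicate blocks: with the number as a fixed factor the counts were 8 for the difference and 6 by pooling alone (21 pooled), with genotype and number as a random block in limma-voom 56 pooled, and with libraries of 1 genotype and number summed 26 pooled, of which 19 were among the 28. In the sums Lima1, at 0.38 in the pooled fit, reversed to −0.0919. The summed fit ended 9 of the 28 calls, and its values and those of the random block that end a call stand in the report. The fixed factor also pairs WT with KO, for which the correlations had mixed signs. It ended 11 of the 28 calls (edgeR adjusted p from 0.0503 for Gm47283 to 0.191 for Smad3).

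Leaving out 1 library gave 17 (without CD8 WT 2) to 40 pooled calls, 14 to 29 at the label CD11b, 7 (without CD8 KO 2) to 53 (without CD8 KO 1) at the label CD8, with 32 without CD11b WT 1, 3 to 8 for the difference (8 without CD8 KO 1, 6 without CD8 WT 1 and 5 without CD11b WT 1, CD11b WT 3 or CD8 WT 3) and 5 (without CD11b WT 3, CD8 WT 3 or CD8 KO 2) to 19 (without CD11b WT 2) by pooling alone, with 16 without CD11b WT 1 and 6 without CD11b KO 2 or CD8 WT 2. A group left with 1 library is assumed to vary like the others. Without CD11b WT 1 and CD8 KO 2 the label CD11b had 13 calls. Without both libraries numbered WT 1 the label CD8 had 34 and the difference 7. Without both WT 3, 15 were called pooled, 8 for the difference and 3 by pooling alone. Without both KO 1 the label CD8 had 54, and without both KO 2 it had 7, with 18 pooled. Cd79a, a B cell gene at 0.96 in the pooled fit and at −0.0884 to 1.23 without 1 library, reversed without CD8 KO 2 (−0.0884), to −0.0657 without CD11b WT 1 as well, and to −0.205 without both KO 2.

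Over 1795 values of 60 genes under 30 settings, 1445 kept direction and side of the threshold, 216 lost a call, 130 gained one and 4 changed sign. Changes under 1.5-fold are mostly below what this depth and n can call, by the simulated recovery.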

Other observations

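Of 34 genes called at a label, 16 were not called in the pooled fit, and 16 of those 16 had an unadjusted p under 0.05 for the difference of effects (5.46% of all genes), as the choice of genes makes likely. One of them, Lima1, an actin-bundling protein gene, stood at 115, 142 and 124 CPM in CD11b WT, 116 and 105 in CD11b KO, 21.6, 21.5 and 14.6 in CD8 WT and 41.7 and 36.2 in CD8 KO. It had 1.02 ± 0.16 at the label CD8 (edgeR adjusted p = 0.00325) and −0.20 ± 0.15 at the label CD11b, where the groups overlapped.

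Cell cycle genes had negative pooled values in 30 of 38 members, with 0 called by edgeR and 1 at an unadjusted p under 0.05. Other lists had few or no members past the threshold: of 18 NRF2 antioxidant genes, 19 sterol synthesis genes, 22 glycolysis and HIF-1 genes and 28 nuclear genes of oxidative phosphorylation, 0 were called by edgeR, with 3, 2, 4 and 2 at an unadjusted p under 0.05. Over all genes, 3.93% were higher and 3.73% lower at that p.

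The exact permutation test within labels, over 33 named genes, gave its smallest possible p of 0.01 for 19. These genes were mostly named by calls on the same counts, so nothing is read from this number. With same-numbered libraries moved together the smallest p is 0.1.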
